A study of Homo sapiens with 4 samples.

Results

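The cytosolic ribosomal proteins and their paralogs were followed in the embryonal carcinoma line NCC-IT-A3, cultured tumour cells of germ cell origin that resemble pluripotent cells. Members were chosen by name: protein-coding genes whose current symbol begins with RPL or RPS and a number, the 3 RPLP genes and RPSA, without the RPS6K kinases and without readthrough loci. This rule found 88 of the 27685 gene IDs. It gave 46 proteins of the large subunit and 31 of the small subunit, together called the core proteins here (77 genes), 8 paralogs whose symbol ends in an L suffix, 2 Y-linked genes that are counted but not described, and RPS19BP1, a binding partner of a ribosomal protein that matches by name only. FAU, a ribosomal protein made as a fusion, lies outside the name rule. RNA-seq was made from 2 groups with 2 libraries each: cells kept for 4 days with 100 nM barasertib, which inhibits the mitotic kinase Aurora B, and cells given the solvent DMSO. Both groups were the same line in RPMI medium with serum, and nothing in the labels tells whether each library was its own culture. The p-values therefore reflect the spread among these 4 libraries alone, which may be technical.

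A ribosome consists of a small subunit, which reads the mRNA, and a large subunit, which joins the amino acids, and each holds ribosomal RNA and a fixed set of proteins, nearly all present once per particle. Messenger RNAs of these proteins typically begin with a C followed by an unbroken run of C and T, the 5' terminal oligopyrimidine (TOP) motif, through which the growth kinase mTORC1 controls their translation. Many of the genes also carry small nucleolar RNAs (snoRNAs), which guide the modification of ribosomal RNA, in their introns.

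The starts of some of the genes on which the results turn are shown here, to set 4 parents beside their paralogs, followed by RPL29 and RPL3 from the large subunit and RPS26 from the small subunit. Each run holds the 10 bases before and 20 bases from the start annotated by RefSeq on GRCh38.p14, 5' to 3' on the gene's strand, with the TOP run in capitals where a C at the start was followed by at least 4 C or T.
RPL22, chr1:6199576-6199605, minus strand: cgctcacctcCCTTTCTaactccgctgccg
RPL22L1, chr3:170870176-170870205, minus strand: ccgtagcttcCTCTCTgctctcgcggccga
RPL26, chr17:8383174-8383203, minus strand: gcgtgtagttCTCTTCCCTTTTgcggccat
RPL26L1, chr5:172958719-172958748, plus strand: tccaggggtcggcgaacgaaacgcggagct
RPL36A, chrX:101391001-101391030, plus strand: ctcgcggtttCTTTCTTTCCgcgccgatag
RPL36AL, chr14:49620607-49620636, minus strand: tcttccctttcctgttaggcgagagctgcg
RPS27, chr1:153990752-153990781, plus strand: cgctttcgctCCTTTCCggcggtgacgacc
RPS27L, chr15:63157458-63157487, minus strand: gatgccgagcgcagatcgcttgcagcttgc
RPL29, chr3:51995876-51995905, minus strand: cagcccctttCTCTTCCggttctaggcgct
RPL3, chr22:39319604-39319633, minus strand: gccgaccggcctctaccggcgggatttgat
RPS26, chr12:56041908-56041937, plus strand: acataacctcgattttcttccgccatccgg
All 4 parents held the run, and of their paralogs RPL22L1 held it. RPL3 and RPS26 did not hold it at the annotated base, which says only that these letters are not there.

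Values are TPM, a length-scaled transcript abundance in which the genes of each library sum to 1000000, so that a level is a share of the library's mRNA per transcript length. In bulk RNA, fewer cells of a type and less RNA per cell cannot be told apart. The aligned sequence came to 4.22 to 4.59 Gb per library, and the median coverage of the core proteins was 3234 to 3812 reads per base. All 9 pluripotency markers were detected, among them NANOG at 246 and 258 TPM with barasertib and 168 and 159 TPM with DMSO. Markers of fibroblasts, muscle, blood and epithelium summed to 26.1 TPM with barasertib and 25.8 TPM with DMSO over 12 genes, and the blood markers PTPRC and CD3E were at 0. The comparison was made with limma on log2(TPM + 1), so each change below is a difference of mean log2(TPM + 1), barasertib minus DMSO, and a gene is called higher or lower when its Benjamini-Hochberg adjusted p over 13938 tested genes was under 0.05. Of these, 3071 were called higher and 1037 lower, and with median-of-ratios scaling 1668 and 1721. The 9 pluripotency markers had changes from -0.32 to 1.12, with 5 called higher and 2 lower, beside 22% and 7.44% of all tested genes.

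The core proteins took a smaller share of the transcripts after barasertib. Together they made up 18.4% and 18.6% of all TPM with barasertib, against 21.4% and 21.2% with DMSO. Both treated libraries lay below both controls, with means of 184942 ± 1789 TPM and 212730 ± 1237 TPM (SD, n = 2). The sums were not tested, and an exact two-sided permutation test of 2 libraries against 2 cannot go below 0.333. Each subunit's sum was lower in both treated libraries: large-subunit proteins summed to 104643 ± 1310 TPM after barasertib and 121149 ± 934 TPM after DMSO, and small-subunit proteins to 80298 ± 479 and 91581 ± 304 TPM. The ratio of the small to the large sum was 0.771 and 0.764 with barasertib and 0.754 and 0.758 with DMSO, so the groups did not overlap; this difference was not tested either.

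**Figure D1:**
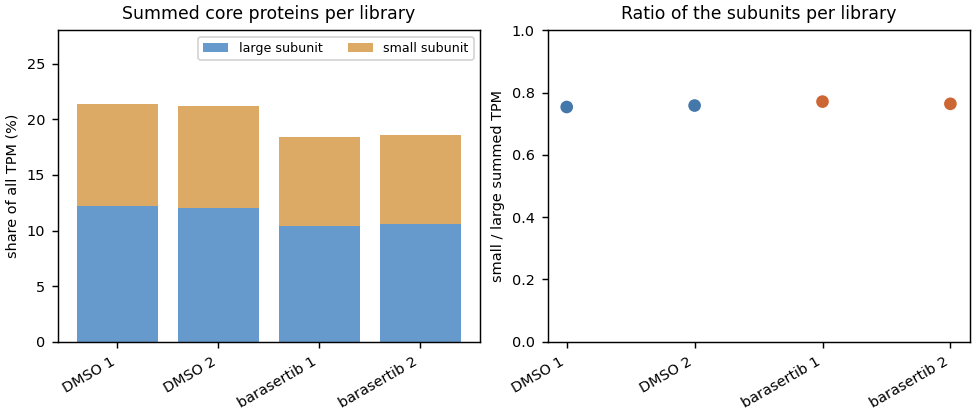
Left, summed TPM of the core ribosomal proteins in each library as a percentage of all TPM, with the large subunit below and the small subunit above; right, the ratio of the 2 sums in each library. The barasertib bars reach 18.4% and 18.6% and the DMSO bars 21.4% and 21.2%, and all 4 ratios lie between 0.754 and 0.771.

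Gene by gene, 60 of the 77 core proteins were called lower and 1, RPS26, was called higher. Over all tested genes 7.44% were called lower and 22% higher. The core median was -0.21, with single genes from -0.72 to 0.28, beside a median of 0.11 over all tested genes. Both ends, RPL21 and RPL13A, are rows whose locus also holds a row listed as a pseudogene, as described below. Summed with their listed copies, these genes changed by -0.19 and -0.56. For 70 core genes both barasertib libraries lay below both DMSO libraries, where 19.7% of the tested genes did so. For RPL13A and RPS26 both barasertib libraries lay above both controls, as they did for 49.1% of the tested genes. The large subunit had 39 of 46 members called lower and none higher, with a median of -0.24. The small subunit had 21 of 31 called lower and 1 higher, with a median of -0.19. Whether the subunits differ was not tested.

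The number of calls depended on the scaling. Median-of-ratios scaling, which moved the median of all tested genes from 0.11 to 0.00, called 71 core proteins lower and none higher, beside 12.3% of all genes lower and 12% higher. With TPM rescaled over the genes that are no ribosomal protein, 65 were called lower and none higher, beside 9.14% and 16.8% of all genes. Quantile normalisation called 20 lower and 6 higher, beside 11.4% and 11.8% of all genes, and it left the medians at -0.08 for the large and -0.02 for the small subunit. After removal of trends with expression level, transcript length and GC content, fitted without ribosomal proteins, 34 were called lower and 3 higher, beside 14.4% and 14.3% of all genes. With variances moderated towards a common value at every expression level (no mean-variance trend), 15 were called lower and none higher, beside 4.84% and 15.9%. In TPM, median-of-ratios and quantile values alike, 20 core proteins were called lower and none higher, beside 7.05% and 10.7% of all genes. The core proteins had a median level of 2482 TPM with DMSO, and why the settings differ was not tested.

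**Figure D2:**
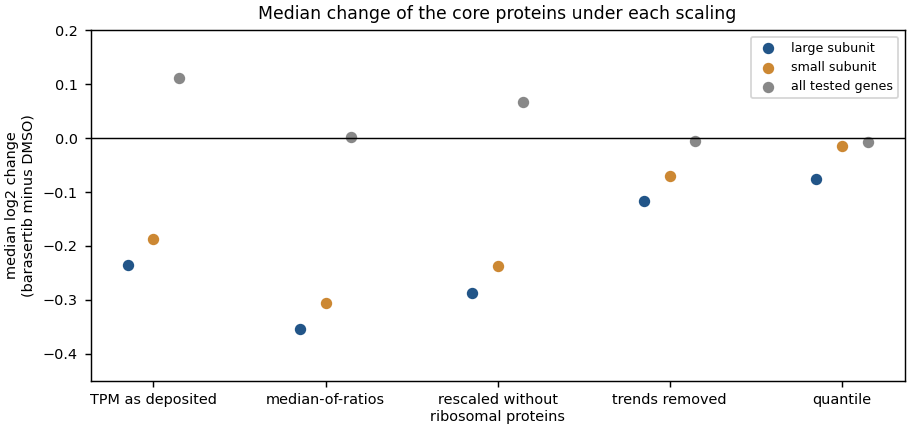
Median log2 change (barasertib minus DMSO) of the 46 large-subunit proteins, the 31 small-subunit proteins and all tested genes under 5 ways of scaling the values. Both subunits lie below 0 and below the median of all genes in each, from -0.35 (large subunit, median-of-ratios) to -0.02 (small subunit, quantile).

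Apart from RPL21, the largest called decreases of the large subunit were in RPL3, RPL29, RPL10, RPL17 and RPL10A. Rows were taken alone here, and RPL13A summed with its listed copies changed by -0.56. RPL3, which reaches towards the peptidyl transferase centre, was at 2826 and 2867 TPM with barasertib and 3755 and 3749 TPM with DMSO. RPL29 was at 1522 and 1510 TPM against 1970 and 1981 TPM. In both genes the treated libraries lay well below the controls, with changes of -0.40 ± 0.03 (SE, limma, adjusted p = 0.00063) and -0.38 ± 0.03 (limma, adjusted p = 0.000849). RPL10, a late-joining protein next to the tRNA path, measured 1273 and 1242 TPM after barasertib and 1636 and 1609 TPM after DMSO. RPL10A, the protein of the mobile L1 stalk, measured 1940 and 1955 TPM against 2478 and 2486 TPM. These 2 genes also showed no overlap and changed by -0.37 and -0.35. RPL12, at the base of the stalk that recruits elongation factors, had 3100 and 3180 TPM after barasertib and 3882 and 3945 TPM after DMSO, a change of -0.32. RPL37, which was at 837 and 831 TPM against 1058 and 1020 TPM, changed by the same amount. RPL3, RPL29, RPL10, RPL10A, RPL12 and RPL37 were called lower in TPM, median-of-ratios and quantile values, as were RPL37A and RPL28, both at -0.27, RPL36A at -0.25 and RPL23 at -0.26. RPL28, RPL36A and RPL23 missed the threshold without a mean-variance trend (limma, adjusted p = 0.0537, 0.0632 and 0.0548), and RPL23 also with trends removed (-0.05, adjusted p = 0.172).

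Proteins were also grouped by site, and differences between sites were not tested. Over the whole core, 60 of 77 proteins were called lower, with a median of -0.21, beside 7.44% of all tested genes. The 8 proteins around the exit tunnel, through which the new chain leaves, had 6 members called lower and a median of -0.24. RPL17, one of them, was lowest at -0.36, with 2314 and 2397 TPM after barasertib and 3044 and 2993 TPM after DMSO. RPL35, at the tunnel's mouth, was at 2158 and 2174 TPM against 2190 and 2184 TPM, a change of -0.01 that was not called. RPL39, which lines the tunnel, was not called in TPM either, at 3330 and 3553 TPM against 3633 and 3771 TPM. Median-of-ratios scaling called both lower, RPL35 at -0.13 and RPL39 at -0.22 (limma, adjusted p = 0.0199 and 0.0101). Quantile values put RPL35 higher (0.12, limma, adjusted p = 0.0371). The proteins that bind 5S ribosomal RNA and, when free, the ubiquitin ligase MDM2 were both called lower: RPL5 by -0.26 and RPL11 by -0.18 (limma, adjusted p = 0.00392 and 0.00605). RPL5 was not called in quantile values (-0.11, limma, adjusted p = 0.0531), with trends removed (-0.08, 0.0677) or without a mean-variance trend (0.0591). RPL11 had values of 4958 and 4910 TPM against 5638 and 5530 TPM, but its sign turned once trends with level, length and GC were removed (0.02), and its call was lost in quantile values (limma, adjusted p = 0.556) and without a filter on low values (0.0644).

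Of the 3 proteins of the acidic stalk 2 were called lower, beside 60 of the 77 core proteins and 7.44% of all tested genes. The stalk, on which elongation factors act, had a median of -0.10. RPLP0, its base, was at 4220 and 4254 TPM after barasertib and at 4721 and 4815 TPM after DMSO, which gave -0.17 (limma, adjusted p = 0.00732). This gene's sign turned to 0.01 with trends removed, and its call was lost in quantile values (limma, adjusted p = 0.165) and without a filter on low values (0.0665). RPLP1 was at 5552 and 5482 TPM against 5951 and 5902 TPM, and its change of -0.10 was called lower, but was not called in quantile values (0.03) or without any 1 library (limma, adjusted p from 0.0761 to 0.121). With trends removed the call reversed to higher (0.09, limma, adjusted p = 0.0331). RPLP2 was at 2004 and 1919 TPM against 2021 and 1942 TPM, so its groups overlapped, and its change of -0.01 was not called. RPL8, another protein near the catalytic centre, was at 3602 and 3650 TPM against 3879 and 3687 TPM and was not called in TPM, while quantile values put it higher, at 0.13 (limma, adjusted p = 0.04). Median-of-ratios scaling called RPL8 lower, at -0.18 (limma, adjusted p = 0.0159). RPL22, which binds RNAs outside the ribosome as well, was called lower at -0.13, and left the threshold when any 1 library was omitted (limma, adjusted p from 0.0508 to 0.158).

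**Figure D3:**
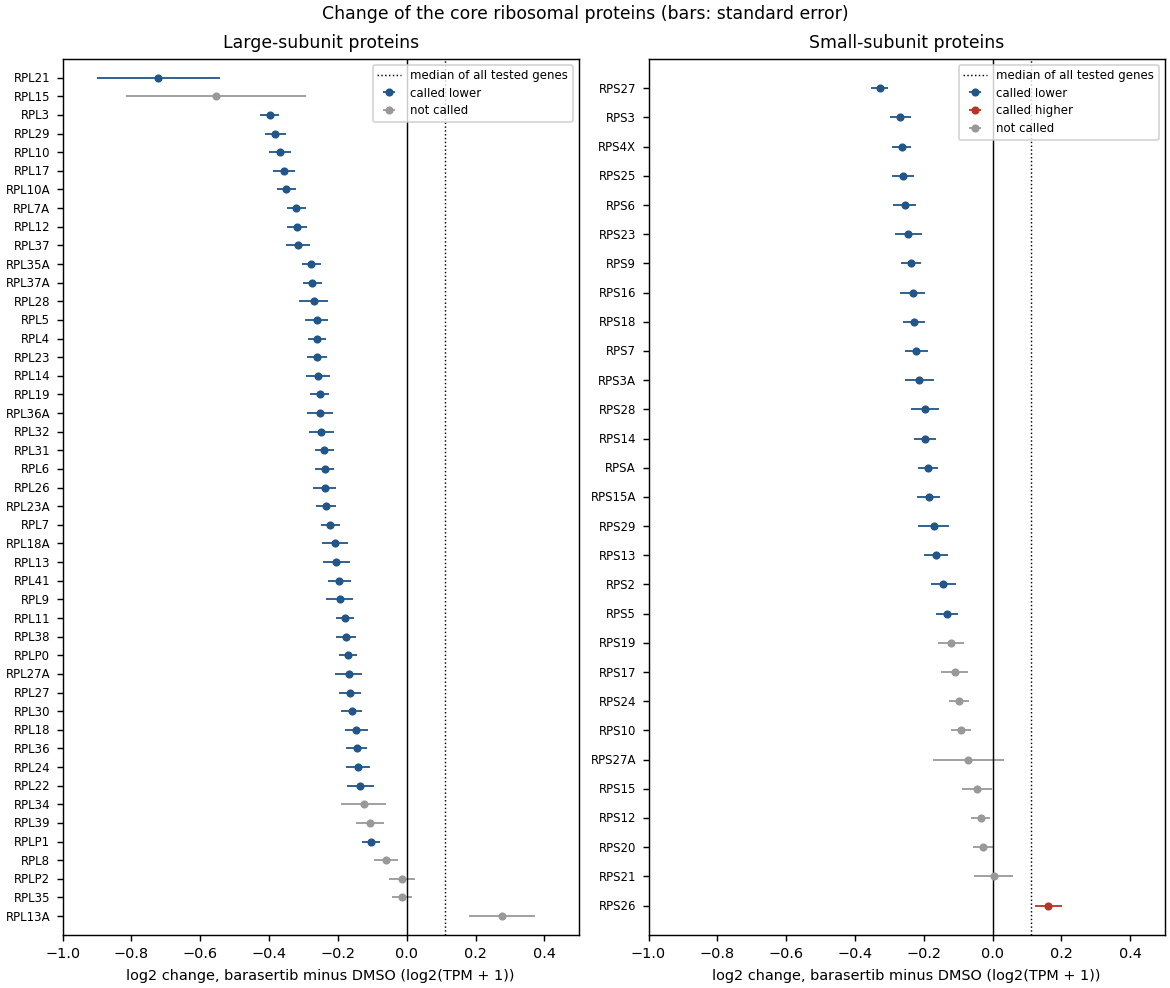
Log2 change (barasertib minus DMSO, log2(TPM + 1)) of the core ribosomal proteins with its standard error from limma, large subunit on the left and small subunit on the right, sorted by size; 2 small-subunit proteins are not drawn. Most points lie between -0.40 and 0 and are called lower; RPL21 and RPL15 have the widest error bars, and the dotted line marks the median of all tested genes at 0.11.

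Separate accounts are needed for 3 genes of the large subunit. RPL13A, known for leaving the ribosome to silence inflammatory transcripts, had the highest value of the core, 0.28, at 2913 and 2592 TPM after barasertib and 2491 and 2064 TPM after DMSO. The files place a second gene ID, listed as the pseudogene RPL13AP5, at chr19:49990865-49995096 on the plus strand (hg19), inside the interval chr19:49990811-49995564 of RPL13A. RPL13AP5 was at 565 and 1040 TPM after barasertib and 2520 and 3404 TPM after DMSO, a change of -1.93 (limma, adjusted p = 0.0057, and 0.11 with robust moderation). So the row of RPL13A lay higher in the treated libraries and the row inside it lay lower, and the sources used here do not state how reads were divided between the rows. The coding sequence of RPL13A was 99.5% identical to the RPL13AP5 transcript over its whole length, so reads can be shared between them. The change of either row alone is therefore not a measure of 1 gene. Summed with its 5 listed copies, RPL13A came to 3483 and 3635 TPM against 5014 and 5472 TPM, which turned its change to -0.56 (limma, adjusted p = 0.0011). The row of RPL13A alone was not called (limma, adjusted p = 0.0752), but was called higher when DMSO replicate 1 was omitted (0.41, limma, adjusted p = 0.00576), in quantile values (0.43, adjusted p = 0.0285) and with trends removed (0.39, adjusted p = 0.0365).

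RPL21 lies in the same situation. Its own row held 3.25 and 2.65 TPM after barasertib and 4.63 and 6.49 TPM after DMSO, the lowest level of any core protein. A row listed as RPL21P28, at chr13:27825693-27830699 (hg19), lies inside the interval chr13:27825692-27830702 of RPL21 and held 2413 and 2593 TPM against 2842 and 2876 TPM. Here the coding sequence of RPL21 was 99.4% identical to the RPL21P28 transcript over its whole length. The change of the RPL21 row, -0.72, was called (limma, adjusted p = 0.0289), but was not called with one of 3 libraries left out (limma, adjusted p = 0.0769 for barasertib replicate 1, 0.131 for barasertib replicate 2 and 0.102 for DMSO replicate 2). Summed with its 2 listed copies, RPL21 changed by -0.19 (limma, adjusted p = 0.017), close to the core median of -0.21. Apart from 2 snoRNA rows inside RPL21, no other row overlapping a member above 1 TPM, on its strand, reached 10% of that member's TPM in all 4 libraries.

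RPL15, one of the genes mutated in the blood disorder Diamond-Blackfan anaemia, turned on 1 library. It was at 797 TPM in barasertib replicate 1, against 1498 TPM in barasertib replicate 2 and 1595 and 1614 TPM in the controls. The difference between its treated replicates, 0.91 on the log2 scale, exceeded that of every other core protein, whose replicate differences had an SD of 0.12 after barasertib and 0.07 after DMSO with all 77 genes included. Its change of -0.55 was not called (limma, adjusted p = 0.16). It was -0.10 without barasertib replicate 1 and -1.01 without barasertib replicate 2, where it was called (limma, adjusted p = 0.00445).

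**Figure D4:**
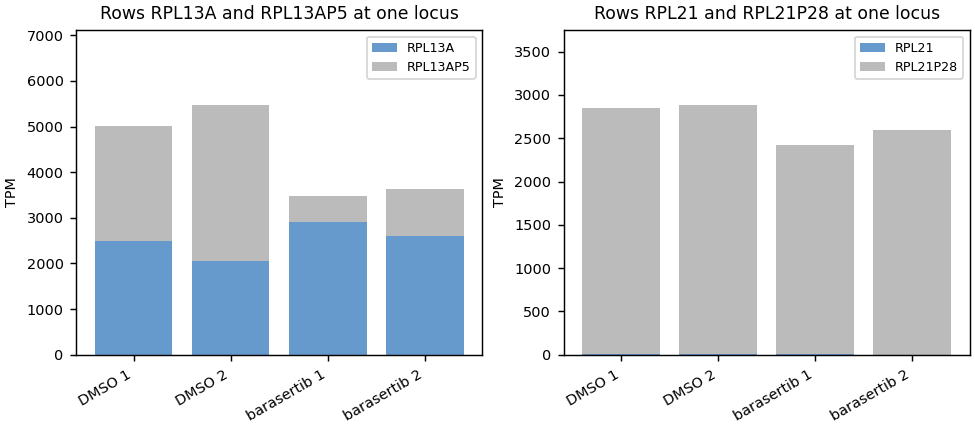
TPM of RPL13A and RPL13AP5 (left) and of RPL21 and RPL21P28 (right) in each library, stacked; each pair of rows occupies one locus in the files. The RPL13A part is larger in the barasertib bars while the whole bar is lower, and RPL21P28 makes up nearly all of the right-hand bars.

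Small-subunit proteins had changes from -0.33 to 0.16. RPS27, which lies on the outer face of the subunit, was at 4259 and 4309 TPM with barasertib and 5367 and 5391 TPM with DMSO. The treated libraries lay below both controls, a change of -0.33 ± 0.03 (SE, limma, adjusted p = 0.000929), which was not called in quantile values (-0.15, adjusted p = 0.0534). RPS6, the classical substrate of the S6 kinases below mTORC1, was at 5307 and 5616 TPM against 6494 and 6539 TPM and changed by -0.26. RPS3, at the entry of the mRNA channel, changed by -0.27, and RPS25, used by some internal ribosome entry sites, by -0.26. Quantile values ended the calls of RPS6 (-0.08), RPS3 (-0.06) and RPS25 (-0.07), with limma adjusted p = 0.311, 0.251 and 0.266, and RPS6 was at -0.03 with trends removed (adjusted p = 0.406). Called lower in TPM, median-of-ratios and quantile values alike were RPS4X (-0.26), RPS23 of the decoding centre (-0.25) and RPS18 of the head (-0.23), among others. RPS6, RPS25, RPS23 and RPS18 missed the threshold without a mean-variance trend (limma, adjusted p = 0.0627, 0.0552, 0.0628 and 0.0728). RPS4X and RPS18 missed it with trends removed (-0.08 and -0.06, limma, adjusted p = 0.0621 and 0.199).

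Of the 31 small-subunit proteins, 9 were not called. RPS12 was at 4270 and 4276 TPM after barasertib and 4433 and 4318 TPM after DMSO, and was not called in TPM (-0.03), while removal of trends put it higher (0.13, limma, adjusted p = 0.0178). RPS20 was at 1774 and 1767 TPM against 1805 and 1803 TPM, and quantile values put it higher as well (0.16, limma, adjusted p = 0.0156). Median-of-ratios scaling called both genes lower, RPS12 at -0.15 and RPS20 at -0.14 (limma, adjusted p = 0.0138 and 0.0167). RPS21 was at 983 and 882 TPM against 945 and 913 TPM, so its groups overlapped. The groups of RPS15, near the decoding centre, and of RPS27A, made as a fusion with ubiquitin, overlapped as well, and neither was called in TPM. FAU, another fusion, was not called in TPM (limma, adjusted p = 0.0608). Median-of-ratios scaling called RPS15 and FAU lower, at -0.16 and -0.22 (limma, adjusted p = 0.0457 and 0.00577). RPS2, at the mRNA entry, was called lower at -0.14, from 6443 and 6295 TPM against 7253 and 6818 TPM, but was at 0.00 in quantile values and 0.05 with trends removed, and its call did not survive the omission of barasertib replicate 1 (limma, adjusted p = 0.092), of barasertib replicate 2 (0.14) or of DMSO replicate 1 (0.12).

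RPS26, which contacts the mRNA upstream of the start codon at the exit of the channel, was the core member called higher. It was at 298 and 300 TPM after barasertib and 269 and 265 TPM after DMSO, so the treated libraries lay just above the controls. Its change of 0.16 ± 0.04 (SE, limma, adjusted p = 0.0282) was not called after median-of-ratios scaling (0.04, adjusted p = 0.45) or in quantile values (0.10, adjusted p = 0.126), nor with TPM rescaled over the other genes (0.11, adjusted p = 0.0909). It was also lost without any 1 library (limma, adjusted p from 0.0797 to 0.124). RPS28, its neighbour at the channel exit, was called lower at -0.20, but not in quantile values (-0.07, limma, adjusted p = 0.312).

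Relative to the median of the core proteins, 12 core genes were called lower and 6 higher, beside 3.5% and 45.7% of all tested genes on that scale. This asks which members changed by another amount than the typical core protein. Those below included RPL21, RPL3, RPL29, RPL10, RPL17, RPL10A, RPL7A, RPL12, RPL37, RPL37A and RPS27, and RPL3 departed by -0.24 (limma, adjusted p = 0.00551). Those above were RPL13A, RPL35, RPLP2, RPS26, RPS20 and RPS21, and RPS26 departed by 0.32 (limma, adjusted p = 0.00358). The departures of RPL13A and RPL21 are those of their own rows. Summed with their listed copies, these genes changed by -0.56 and -0.19 in TPM, beside the core median of -0.21. Across the 77 core proteins the change had a Pearson r of 0.23 with log2 mean TPM, -0.13 with log2 transcript length and 0.20 with GC content, and Spearman's rho was -0.10, -0.25 and 0.17. These values describe genes that share libraries and carry no test.

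The paralogs moved in both directions. Of the 8, 7 reached a mean of 1 TPM and were tested, which gave 2 called lower and 1 higher, with a median of -0.05. Over all tested genes 7.44% were called lower and 22% higher. RPL10L, expressed mainly in testis, was listed at 0.251 TPM in barasertib replicate 1 and at 0 in the other 3 libraries.

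RPL22L1 (chr3:170582665-170588045, minus strand, hg19), a partly interchangeable paralog of RPL22, was at 21.4 and 22.5 TPM after barasertib and 37 and 34.6 TPM after DMSO. RPL39L (chr3:186838739-186857311, minus strand, hg19), a paralog of RPL39 known from male germ cells, was at 153 and 181 TPM against 253 and 242 TPM. Both lay lower in the 2 treated libraries, with changes of -0.68 ± 0.07 and -0.57 ± 0.08 (SE, limma, adjusted p = 0.00196 and 0.00521), and both were called lower in TPM, median-of-ratios and quantile values and without any 1 library. In these scalings alike, 7.05% of all tested genes were called lower. As a share of its parent, RPL22L1 came to 2.003% ± 0.0040 after barasertib (mean and SD, n = 2) and to 3.05% and 2.91% after DMSO. RPL39L came to 4.60% and 5.08% of RPL39 against 6.95% and 6.42%. These shares did not overlap between the groups, and they were not tested. The coding sequence of RPL39L was 94.8% identical to that of RPL39 over its whole length, so reads can be shared between them, and the sources used here do not state how such reads were assigned.

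RPS27L (chr15:63445539-63449741, minus strand, hg19), a paralog of RPS27, was the paralog called higher. It was at 36.4 and 37.5 TPM after barasertib and 23.6 and 27.5 TPM after DMSO, and both treated libraries exceeded both controls. The change was 0.52 ± 0.09 (SE, limma, adjusted p = 0.00887) and was called in median-of-ratios and quantile values too, at 0.40 and 0.43, beside 10.7% of all tested genes called higher in all 3. It was just short of the threshold without barasertib replicate 1 or barasertib replicate 2 (limma, adjusted p = 0.0518 and 0.0573). With its parent lower, RPS27L came to 0.856% and 0.871% of RPS27 after barasertib, against 0.440% and 0.511% after DMSO.

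RPL26L1 was at 66.4 and 70.1 TPM after barasertib and 56.2 and 61.4 TPM after DMSO, which did not overlap, but its change of 0.21 was not called (limma, adjusted p = 0.0584). Its share of RPL26 was 1.86% and 1.90% against 1.29% and 1.46%. RPL36AL was at 220 and 215 TPM against 230 and 221 TPM and was not called in TPM, at -0.05. Median-of-ratios scaling called RPL36AL lower, at -0.17 (limma, adjusted p = 0.0457). RPL7L1, which takes part in ribosome assembly, was at 99.4 and 99.1 TPM against 95.2 and 104 TPM, so its groups overlapped. RPL3L, the striated-muscle paralog of RPL3, was at 2.20 and 1.07 TPM against 2.08 and 2.18 TPM and was not called. RPS19BP1, the member by name only, was called higher at 0.30, from 150 and 149 TPM against 123 and 120 TPM (limma, adjusted p = 0.00649), but not with trends removed (adjusted p = 0.0718).

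**Figure D5:**
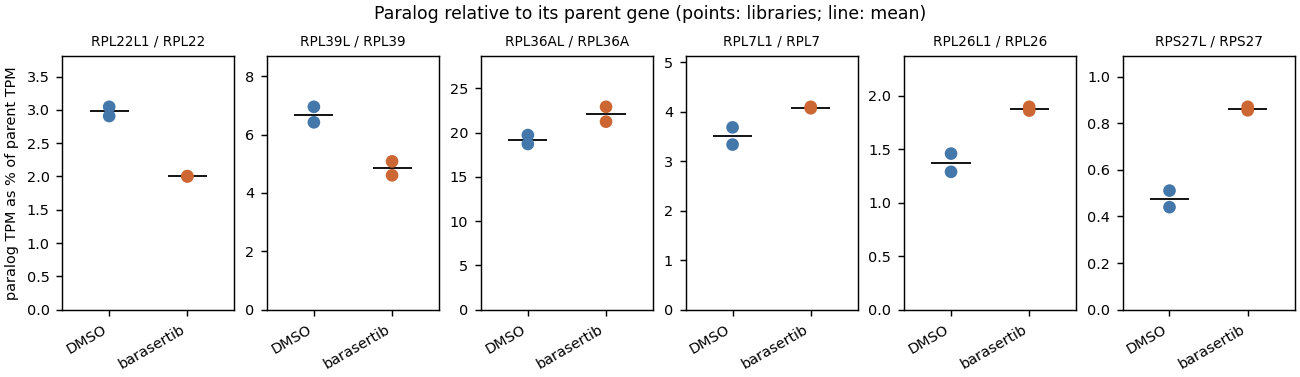
TPM of 6 paralogs as a percentage of the TPM of the parent gene in each library (points) with the group mean (line); each panel has its own axis from 0. The barasertib points lie below the DMSO points for RPL22L1 and RPL39L and above them for RPL36AL, RPL7L1, RPL26L1 and RPS27L.

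The TOP run was common among members and was set beside the changes. RefSeq promoters were matched for 62 of the 77 core genes, and 46 of them (74.2%) held a C at the annotated start followed by at least 4 C or T. The run stood in 5.14% of 27305 genes with a promoter and in 6.98% of tested genes that are no member. The share was 73.7% for the large and 75.0% for the small subunit, and 1 of 6 paralogs with a promoter held it. In the window of 300 bases around the start, the ETS-like word CCGGAA on either strand stood in 56.5% of core genes. It stood in 20.1% of all genes with a promoter and in 34.6% of tested genes that are no member. Core genes with the TOP run had a median change of -0.20 (35 of 46 called lower) and those without it -0.24 (13 of 16 called lower), and the difference between these sets was not tested. The order of these medians turned when the run could begin within 5 bases of the annotated start. Core genes with such a run had a median of -0.212 (42 of 53 called lower) and the others -0.195 (6 of 9 called lower). Among tested genes that are no member, those with the run had a median of 0.00 (116 higher and 136 lower of 757) and those without it 0.12 (2335 higher and 645 lower of 10083). Core genes that host a snoRNA had a median of -0.25 over 29 genes, with 24 called lower, and the other 48 had -0.20, with 36 called lower. In quantile values 12 of the 29 and 8 of the 48 were called lower, beside 11.4% of all tested genes. The difference between these 2 sets was not tested either. Of all 77 core proteins 60 were called lower in TPM, and of all tested genes 7.44%.

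Most of the other genes known for TOP mRNAs were lower as well. Of 17, 13 were called lower and none higher, with a median of -0.27, and 8 were called lower in TPM, median-of-ratios and quantile values, beside 7.44% and 7.05% of all tested genes. EEF2, the elongation factor that moves the ribosome along, was at 4398 and 4390 TPM after barasertib and 5868 and 5742 TPM after DMSO, a change of -0.40 (limma, adjusted p = 0.00058). EIF4B, an initiation factor, was at 505 and 537 TPM against 720 and 706 TPM, a change of -0.45. EEF1A1, which brings aminoacyl-tRNA, changed by -0.37, but was not called in quantile values (-0.15, limma, adjusted p = 0.276) or with trends removed (-0.03, adjusted p = 0.397). Its partner EEF1G changed by -0.36 and was called in both. Of the 6 fusion and partner genes of the ribosome, 2 were called lower: RACK1, a scaffold on the small subunit, at -0.28, and NACA, a chaperone at the tunnel exit, at -0.17. With median-of-ratios scaling all 6 were called lower, beside 12.3% of all tested genes, and with quantile normalisation none was, beside 11.4%. NACA was no longer called with barasertib replicate 1 omitted (limma, adjusted p = 0.0836) or with DMSO replicate 1 omitted (0.0853).

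Lists of ribosome assembly genes had medians near that of all tested genes, 0.11. Of 40 large-subunit assembly factors, 16 were called higher and 2 lower, with a median of 0.15, beside 22% and 7.44% of all tested genes. In TPM, median-of-ratios and quantile values alike, 2 were called higher and 2 lower, beside 10.7% and 7.05% of all tested genes. GTPBP4, a GTPase of early assembly, was at 154 and 160 TPM after barasertib and 120 and 124 TPM after DMSO (0.37, limma, adjusted p = 0.00458). NMD3, the export adaptor of the large subunit, fell from 67.9 and 69.5 TPM to 51.5 and 55.5 TPM (limma, adjusted p = 0.00955). Without 1 library the number called higher was 5 (barasertib replicate 1), 5 (barasertib replicate 2), 7 (DMSO replicate 1) or 10 (DMSO replicate 2), and with median-of-ratios scaling it was 2. Of 34 small-subunit assembly factors, 9 were called higher and 2 lower, with a median of 0.15, and 4 and 2 in all 3 scalings, shares near those of all tested genes. PNO1, which positions the nuclease that ends small-subunit maturation, was at 91.4 and 89.7 TPM against 71.6 and 72.7 TPM, a change of 0.32. The number called higher here was 5 without barasertib replicate 1, 3 without barasertib replicate 2 and 5 without DMSO replicate 2. Of 10 snoRNP proteins 3 were called higher, beside 22% of all tested genes (1 without barasertib replicate 2, and 1 in quantile values). NOP56, a core protein of box C/D particles, was at 284 and 278 TPM against 231 and 236 TPM.

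The remaining lists were mixed. Of 14 genes of RNA polymerase I and its factors, 2 were called higher and 3 lower, beside 22% and 7.44% of all tested genes. POLR1E, a subunit, was at 86.4 and 83.9 TPM against 106 and 103 TPM, a change of -0.29. All 3 genes called lower, POLR1E among them, were so in all 3 scalings, beside 7.05% of all tested genes. The 2 called higher were POLR1F and RRN3, and of these 1 was called without barasertib replicate 1, none without barasertib replicate 2, and 1 without either DMSO replicate. Of 18 regulators of mTORC1 and TOP mRNAs, 4 were called higher and 2 lower, beside 22% and 7.44% of all tested genes. EIF4EBP1, the repressor of the cap-binding factor, was at 268 and 265 TPM after barasertib and 357 and 331 TPM after DMSO, a change of -0.36 (limma, adjusted p = 0.00467). DDIT4, a stress-induced inhibitor of mTORC1, changed by -0.40, a call lost without barasertib replicate 1 or 2 (limma, adjusted p = 0.0837 and 0.073). The number of regulators called higher was 1 without barasertib replicate 1 and 2 without each of the other libraries. Of 7 chaperones of ribosomal proteins 1, TSR2, the partner of RPS26, was called higher at 0.18, beside 22% of all tested genes. Its call was lost without any 1 library (limma, adjusted p from 0.1 to 0.192). Median-of-ratios and quantile values called none of the 7 higher, beside 12% and 11.8% of all tested genes.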

How the data were processed

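RNA-seq of 2 barasertib and 2 DMSO libraries was used. Per the submitters' processing notes, reads were aligned to hg19 with HISAT2 and summarised with StringTie (the sources used here give no versions and no strand setting). Libraries came from polyadenylated RNA with a stranded kit, per the labels' protocols. The deposited files hold coverage (a signal, the mean depth), FPKM and TPM per gene row, and no counts. Rows were summed per gene ID, and 27559 of 27685 IDs matched a RefSeq symbol. Aligned sequence per library (4.22 to 4.59 Gb) was taken as deposited coverage divided by FPKM, at its largest over genes, which rests on StringTie's definition of FPKM.

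The test was two-sided: limma 3.58.1 in R 4.3.3 fitted group alone to log2(TPM + 1) for genes averaging 1 TPM or more, and moderated variances along a mean-variance trend. Residual degrees of freedom were 2 and prior ones 4.09. P-values were adjusted after Benjamini and Hochberg and judged at 0.05. limma was checked on simulated data. Genes were named by rule: every paralog and its parent, the 6 highest and 6 lowest changes and the 5 most abundant members of each subunit, members called in all 3 scalings (up to 12), the fusions, and up to 4 called genes per related list; RPL7A, RPS19BP1 and the copies were named after their values were seen. The members, lists and roles were chosen with earlier results of these data known. Alternatives were another filter, pseudocounts of 0.1 and 5, FPKM, other scalings, the highest row per ID, other moderation, a replicate block and each library left out. Summing with listed copies, removal of trends and centring on the core proteins were added after the data were seen. Python 3.11.15 and matplotlib 3.10.9 made the tables and plots, and coding sequences were compared with GENCODE transcripts. No protein sequences were used here. Some genes that the rule names, and 1 related list, are not reported here.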

Additional observations from a re-analysis of the deposited data

How the results depend on the processing

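The core proteins called lower numbered 60, and 39 without a filter on low values, 20 with quantile normalisation, 15 without a mean-variance trend, 34 with trends with level, length and GC removed, 12 centred on the core proteins, and 44 to 50 without 1 library; those called higher numbered 1, and 0 with median-of-ratios scaling, with TPM rescaled over genes that are no ribosomal protein and without a mean-variance trend, 6 with quantile normalisation and when centred, 3 with trends removed, 2 with the replicate block, and 0 to 1 without 1 library. Large-subunit proteins called lower went from 39 to 16 (quantile), 10 (no mean-variance trend), 25 (trends removed), 10 (centred) and 29 to 33 (1 library left out), and those called higher from 0 to 3, 0, 2, 3 and 0 to 1, with 1 under the block. Small-subunit proteins called lower went from 21 to 13 (no filter), 4 (quantile), 5 (no mean-variance trend), 9 (trends removed), 2 (centred) and 15 to 18 (1 library left out), and those called higher from 1 to 3 (quantile and centred) and to 0 (median-of-ratios, rescaled TPM, no mean-variance trend and each library left out). Paralogs called higher were 1, and 2 with robust moderation, with the block and when centred, and 0 to 1 without 1 library; those called lower were 2, and 2 without each library. Over the related lists, with the 1 not reported here, 36 were called higher and 24 lower, beside 22% and 7.44% of all tested genes. The sizes of the reported lists are given above. Median-of-ratios scaling gave 10 higher and quantile values 15, beside 12% and 11.8% of all tested genes. Without a mean-variance trend 13 were higher and 12 lower, beside 15.9% and 4.84%. Without 1 library, 13 to 22 were called higher and 17 to 21 lower. All tested genes gave 3071 higher and 1037 lower, with 1668 and 1721 (median-of-ratios), 1649 and 1590 (quantile), 674 lower (no mean-variance trend), and 1365 to 2181 higher and 601 to 699 lower without 1 library. The summed core level changed by -0.20, by -0.23 in FPKM, by -0.32 with median-of-ratios scaling and by -0.21 to -0.19 without 1 library. A turned sign was counted among 79 single genes, not all members, and only with a call in TPM or in the setting named. Signs turned so for RPL11 (0.024), RPLP0 (0.0074), RPLP1 (0.094), RPS12 (0.13) and RPS2 (0.047) with trends removed, for RPL35 (0.12), RPL8 (0.13), RPLP1 (0.034) and RPS20 (0.16) with quantile normalisation, for RPL22 (0.019), RPL35 (0.14), RPLP1 (0.051), RPLP2 (0.14), RPS2 (0.011) and RPS20 (0.13) when centred, and for RPL13A (-0.56) when summed with its copies. Of 1402 values of 79 single genes under these settings, 1207 stayed on their side of the threshold (uncalled values may have changed sign), 153 lost a call, 26 gained one and 16 turned with a call. The causes were not tested. Replicate numbers share only a label: deviations of same-numbered libraries correlated at 0.02 over all genes and -0.12 over the core, and with the replicate block 59 core proteins were called lower. Read counts are not in the files, so counting error is unknown.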
